A study of Homo sapiens with 6 samples.

Results

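Protease inhibitors of monocytes and neutrophils were followed in MV4;11 cells treated with MI-389: the serpins SERPINA1, SERPINB1, SERPINB2, SERPINB8 and SERPINB9, the cystatins CST3, CSTA and CSTB, and the metalloprotease inhibitors TIMP1 and TIMP2. These 10 genes were chosen by name, with earlier results of these data known. All probe sets that the platform annotation assigns to one of them were used. Of the 10 genes, 9 had a value among the 18239 genes tested, through 25 of the 49293 probe sets tested. SERPINB2 was not analysed here. MV4;11 is an established human leukemia line whose MLL gene (KMT2A) is rearranged, a feature that both groups share. One group of 3 cultures received 4 µM MI-389, an inhibitor of the binding of menin to MLL, and the other group of 3 received the solvent DMSO alone. Both were at 0.25% DMSO for 6 days, with the medium and the compound renewed on day 3. All values come from a single line, dose and time. The labels call the cultures biological replicates and do not say how they were kept apart. The tests therefore rest on the variation among these 6 samples, some of which may be technical.

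Serpins trap serine proteases, and some cysteine proteases, by offering a loop that the protease cleaves and then cannot release. Cystatins block papain-like cysteine proteases such as the cathepsins by filling their active site, either outside the cell (cystatin C, from CST3) or in the cytosol (the stefins CSTA and CSTB). TIMPs close the active site of matrix metalloproteases. Monocytes and neutrophils carry these inhibitors alongside the granule proteases, cathepsins and metalloproteases that they store or secrete.

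Promoter windows are shown because SERPINA1, SERPINB8 and CST3 were among the members that rose, while SERPINB1 was well expressed in both groups and not called. RefSeq promoter windows of GRCh38.p14, from 250 bases before to 50 after the annotated start, were found for 7 of the 10 genes. None was found for CSTA, CSTB and TIMP2, which also rose. SERPINA1 has 2 such windows, the first upstream of the second. Monocytes are known to start the SERPINA1 transcript upstream of the start used by hepatocytes. Both strands were searched for 5 motifs, and capitals mark every match. The core of PU.1 sites was GAGGAA. The loose C/EBP-like motif was TTNNGNAA. AP-1 sites were sought as TGANTCA. The core of MEIS sites was TGACAG. The TATA box was TATAAA. The windows lie at chr14:94390586-94390885 (minus strand) for the upstream SERPINA1 start, chr14:94388553-94388852 (minus strand) for the downstream one, chr18:63969831-63970130 (plus strand) for SERPINB8, chr20:23637906-23638205 (minus strand) for CST3 and chr6:2841814-2842113 (minus strand) for SERPINB1.
SERPINA1 upstream: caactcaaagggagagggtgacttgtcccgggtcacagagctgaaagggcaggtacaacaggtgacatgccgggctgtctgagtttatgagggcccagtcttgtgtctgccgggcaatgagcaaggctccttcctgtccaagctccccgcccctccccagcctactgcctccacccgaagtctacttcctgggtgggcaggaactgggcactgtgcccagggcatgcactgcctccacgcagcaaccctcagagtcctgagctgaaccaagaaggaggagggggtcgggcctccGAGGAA
SERPINA1 downstream: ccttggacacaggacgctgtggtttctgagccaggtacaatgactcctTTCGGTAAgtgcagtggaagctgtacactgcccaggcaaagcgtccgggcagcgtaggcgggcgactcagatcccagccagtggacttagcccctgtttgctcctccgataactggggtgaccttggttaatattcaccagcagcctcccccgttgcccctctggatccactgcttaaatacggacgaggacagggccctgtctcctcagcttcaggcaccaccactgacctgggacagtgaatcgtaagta
SERPINB8: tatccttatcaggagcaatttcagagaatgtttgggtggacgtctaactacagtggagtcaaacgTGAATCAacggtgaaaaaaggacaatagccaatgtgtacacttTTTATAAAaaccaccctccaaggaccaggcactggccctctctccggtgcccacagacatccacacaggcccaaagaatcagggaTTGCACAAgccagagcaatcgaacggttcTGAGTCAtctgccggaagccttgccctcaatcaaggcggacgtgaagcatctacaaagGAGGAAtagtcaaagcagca
CST3: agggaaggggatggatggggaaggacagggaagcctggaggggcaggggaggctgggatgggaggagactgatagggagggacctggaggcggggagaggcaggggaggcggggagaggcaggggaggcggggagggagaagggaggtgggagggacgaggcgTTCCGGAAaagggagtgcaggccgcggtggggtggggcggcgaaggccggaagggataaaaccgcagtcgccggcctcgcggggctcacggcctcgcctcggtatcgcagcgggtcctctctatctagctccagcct
SERPINB1: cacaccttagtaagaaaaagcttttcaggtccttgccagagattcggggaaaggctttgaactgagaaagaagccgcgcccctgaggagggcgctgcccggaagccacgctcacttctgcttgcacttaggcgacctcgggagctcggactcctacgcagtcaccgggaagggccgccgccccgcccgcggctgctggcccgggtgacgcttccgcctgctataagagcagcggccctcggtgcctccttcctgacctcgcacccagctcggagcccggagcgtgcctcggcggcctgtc

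The SERPINB8 window held a match to 4 of the 5 motifs. It had the PU.1 core at position 31 after the start, the C/EBP-like motif at -57, AP-1 matches at -185 and -28, and overlapping TATAAA matches of both strands at -142 and -140. The upstream SERPINA1 window held only the PU.1 core, at position 45, and the downstream one only the C/EBP-like motif, at -202. In the CST3 window the C/EBP-like motif matched at -87, with the same letters on both strands. The SERPINB1 window held none of the 5 motifs. Of the windows not shown, that of SERPINB9, a gene not called, matched 1 of the 5 motifs. The SERPINB2 window matched 3, and that of TIMP1, not called, matched none. Among 34943 RefSeq windows of the same length, GAGGAA occurred in 27.9%, TTNNGNAA in 36.9%, TGANTCA in 7.72%, TGACAG in 15.8% and TATAAA in 11.6%. These motifs are short and frequent, so a match only describes the letters. In base composition the windows ranged widely: SERPINB8 had a GC content of 48.67%, the SERPINA1 windows 61.67% and 57.33%, CST3 69.67% and SERPINB1 65.67%, against a median of 58.67% over all windows.

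Levels are RMA values on the log2 scale as deposited, and each gene is given by its probe set with the highest mean over the 6 arrays. "Rose" and "fell" are used of genes with a limma adjusted p under 0.05 over all genes. Control probe sets named as nonspecific reached 5.49 at most, apart from the one of highest GC, which reached 7.87. The level of 5.49 serves as a guide to background, and the bounds on folds below rest on it. Array medians lay between 4.47 and 4.49. Arrays correlated at 0.997 to 0.998 within groups and at 0.979 to 0.981 between them, over probe sets, which are not independent replicates. The difference between 3-prime and 5-prime probe sets of GAPDH was 0.01 to 0.05 on the MI-389 arrays and -0.12 to -0.08 on the DMSO arrays, and that of ACTB 1.48 to 1.91 and 1.23 to 1.39 in the same order. The part of this offset in the results below was not tested.

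In total, 6 of the 9 measured genes rose with MI-389 and none fell, where 34.1% of all genes tested were called, 18.4% higher and 15.7% lower. Of all 18239 genes, 9311 lay under 5.49 in both groups, against 1 of the 9 members. The shares and the median over all genes therefore include many genes at background. With the arrays centred on the hybridisation spike-ins, a rescaling that moves the median of all genes from 0.02 to -0.23, 5 members were called higher and 2, SERPINB1 and SERPINB9, lower, where 7.66% of all genes were called higher and 60.6% lower. Of the 2 called lower there, SERPINB9 lay under 5.49 in both groups. The median log2 difference of the 9 members in the scaling as deposited was 0.98, beside 0.02 over all genes. The MI-389 and DMSO arrays did not overlap for 6 of the 9, against 45.3% of all genes. For SERPINA1, TIMP2, CST3 and SERPINB8, the change was also at least 2-fold, as for 3.87% of all genes. In bulk RNA, a change in the share of cells that express a gene and a change in RNA per cell cannot be told apart.

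**Figure D1:**
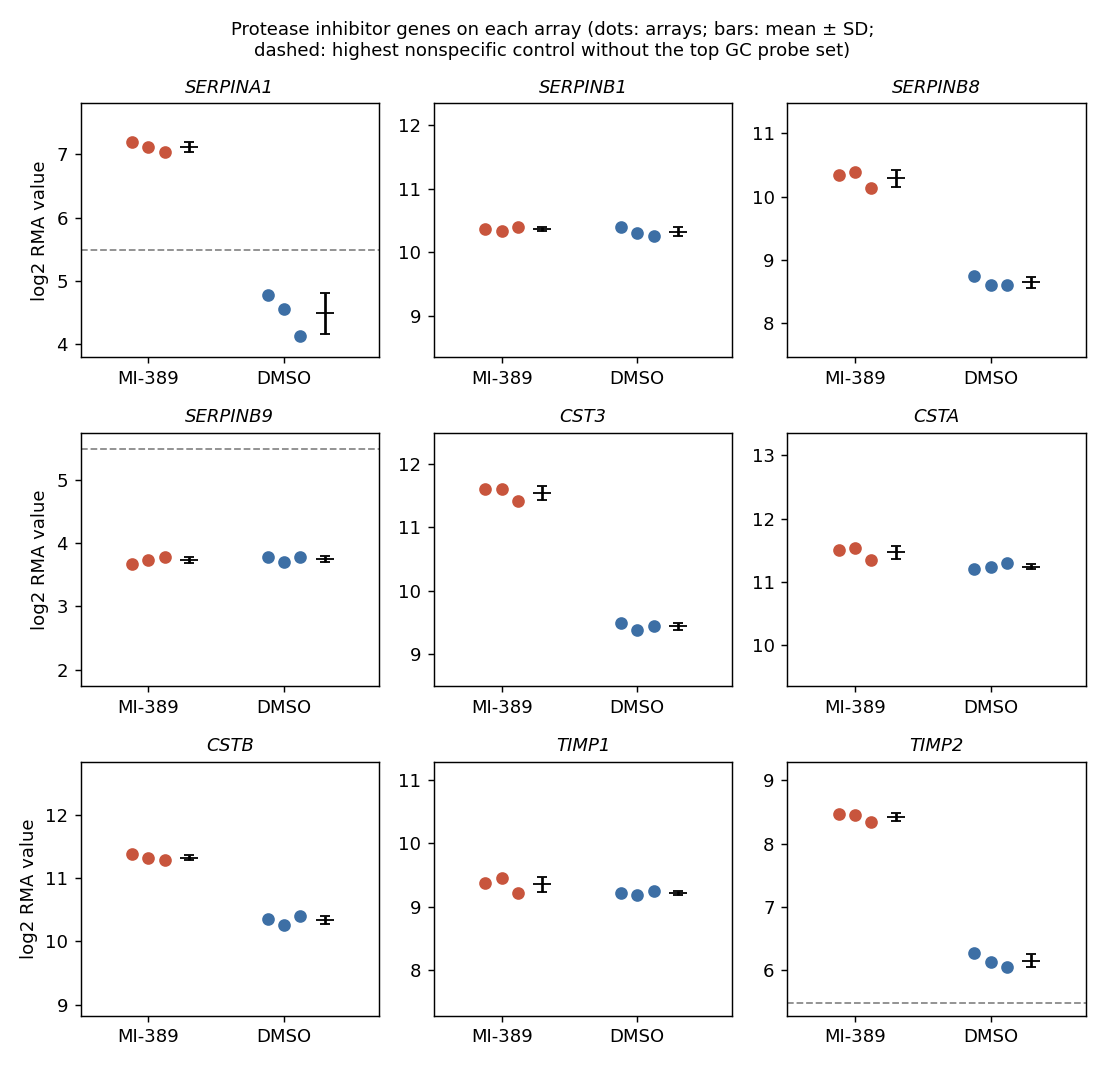
Log2 RMA value of each of the 9 measured protease inhibitor genes on the 3 MI-389 arrays (left, red) and the 3 DMSO arrays (right, blue), with mean ± SD beside the dots; every panel spans 4 log2 units, and the dashed line is the background guide of 5.49. SERPINA1, SERPINB8, CST3, CSTB and TIMP2 separate widely, CSTA narrowly, and SERPINB1, SERPINB9 and TIMP1 overlap.

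SERPINA1 encodes alpha-1-antitrypsin, the main plasma inhibitor of neutrophil elastase, which monocytes also make. It stood at 7.18, 7.11 and 7.03 with MI-389, against 4.77, 4.55 and 4.14 with DMSO. All 3 MI-389 arrays were above the background guide and all 3 DMSO arrays were under it. SERPINA1 rose by 2.62 on the log2 scale (SE 0.133, 95% interval 2.32 to 2.92, adjusted p = 2.09e-07 by limma), the largest fitted change of the 9 members. Because DMSO levels lay under 5.49, that level was put in their place, which gives an at least 3.08-fold higher SERPINA1 with MI-389. Of its 4 probe sets, 3 rose, by 2.62, 2.12 and 1.61, and the other, 11721457_a_at, lay under 5.49 in both groups with a difference of 0.03. When each gene's probe sets were averaged, the change of SERPINA1 was 1.59, below those of CST3 (2.10) and TIMP2 (1.84), so its rank rests on the probe set chosen and on a DMSO level under background. The files do not say which of the 2 starts these probe sets read.

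SERPINB1, a cytosolic inhibitor of neutrophil elastase, cathepsin G and proteinase 3, had 10.36, 10.34 and 10.40 with MI-389, against 10.40, 10.31 and 10.26 with DMSO. The groups overlapped, far above background. Its difference of 0.05 (95% interval -0.09 to 0.18, limma adjusted p = 0.627) has 0.18 as its upper bound. With the spike-in centring it stood at -0.21 and was called lower (limma adjusted p = 0.0354).

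SERPINB8, an intracellular serpin known to inhibit furin, had 10.35, 10.39 and 10.13 with MI-389, against 8.75, 8.60 and 8.60 with DMSO. The MI-389 arrays were all higher, with more than a log2 unit between the groups. SERPINB8 rose 3.12-fold, a log2 change of 1.64 (SE 0.08, adjusted p = 1.28e-07 by limma). All 4 of its probe sets rose. The largest change, 2.07, was that of 11737922_a_at, and the smallest, 0.34, that of 11737923_at, which lay under 5.49 in both groups.

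SERPINB9, an inhibitor of granzyme B that protects cytotoxic and antigen-presenting cells, had values of 3.68, 3.74 and 3.78 with MI-389, against 3.77, 3.70 and 3.77 with DMSO. All 4 of its probe sets lay under 5.49 on every array. Their differences ran from -0.02 to 0.09, and none was called. SERPINB9 was not detectable above background here, and no direction can be read from it.

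CST3 encodes cystatin C, the secreted cystatin that binds cathepsins outside the cell. It had 11.61, 11.60 and 11.41 with MI-389, against 9.49, 9.39 and 9.45 with DMSO. The groups lay about 2 log2 units apart, with SDs of 0.11 and 0.05. CST3 rose 4.28-fold, a log2 change of 2.10 (SE 0.07, adjusted p = 8.93e-09 by limma). Its second probe set gave the same difference, 2.10. Both have suffixes that mark sequence shared with other transcripts. The related genes CST1, CST2 and CST4 had both groups under 5.49, and CST2 changed by -0.29.

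CSTB, stefin B, guards the cytosol against cathepsins that leak from lysosomes. It had 11.37, 11.32 and 11.28 with MI-389, against 10.36, 10.26 and 10.39 with DMSO. The MI-389 arrays were again all higher. CSTB rose 1.98-fold, a log2 change of 0.98 (SE 0.06, adjusted p = 6.74e-07 by limma), and its 4 probe sets ran closely together, from 0.90 to 0.98.

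CSTA, stefin A, had 11.50, 11.54 and 11.35 with MI-389, against 11.21, 11.23 and 11.29 with DMSO. The groups did not overlap, but MI-389 replicate 3 and DMSO replicate 3 nearly met. CSTA rose by 0.22 (SE 0.07, adjusted p = 0.0240 by limma), a 1.17-fold change read by 1 probe set. The call was lost without MI-389 replicate 1 (0.20), MI-389 replicate 2 (0.18), DMSO replicate 1 (0.20) or DMSO replicate 2 (0.22), with adjusted p of 0.0737, 0.0828, 0.0829 and 0.0780. With the spike-in centring CSTA was at -0.03 and not called.

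TIMP2 inhibits metalloproteases and also links the membrane protease MMP14 to the proenzyme of MMP2, which MMP14 then activates. It had 8.46, 8.46 and 8.34 with MI-389, against 6.27, 6.13 and 6.06 with DMSO. All 6 values were above background, and the groups were far apart. TIMP2 rose 4.81-fold, a log2 change of 2.27 (SE 0.07, adjusted p = 5.5e-09 by limma), the smallest adjusted p among the members. Its second probe set, 11748126_a_at, rose by 1.42, with the DMSO arrays under 5.49, which makes it at least 1.64-fold higher.

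TIMP1, which also binds the proenzyme of MMP9, had 9.37, 9.46 and 9.22 with MI-389, against 9.21, 9.18 and 9.24 with DMSO. MI-389 replicate 3 lay inside the DMSO range. The difference was 0.14 (95% interval -0.01 to 0.29, limma adjusted p = 0.159), and without MI-389 replicate 3 TIMP1 was called, at 0.20 (adjusted p = 0.0292). Of its 3 probe sets, 11715359_a_at was called higher, by 0.19 (limma adjusted p = 0.0458 over all probe sets), and 11763761_a_at lay under background. The call of 11715359_a_at was lost without any single array other than MI-389 replicate 3, with adjusted p from 0.0765 to 0.179, and with a common array median (0.0760). The signs of SERPINB1, CSTA and TIMP1 turned with the spike-in centring, which put TIMP1 at -0.11.

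**Figure D2:**
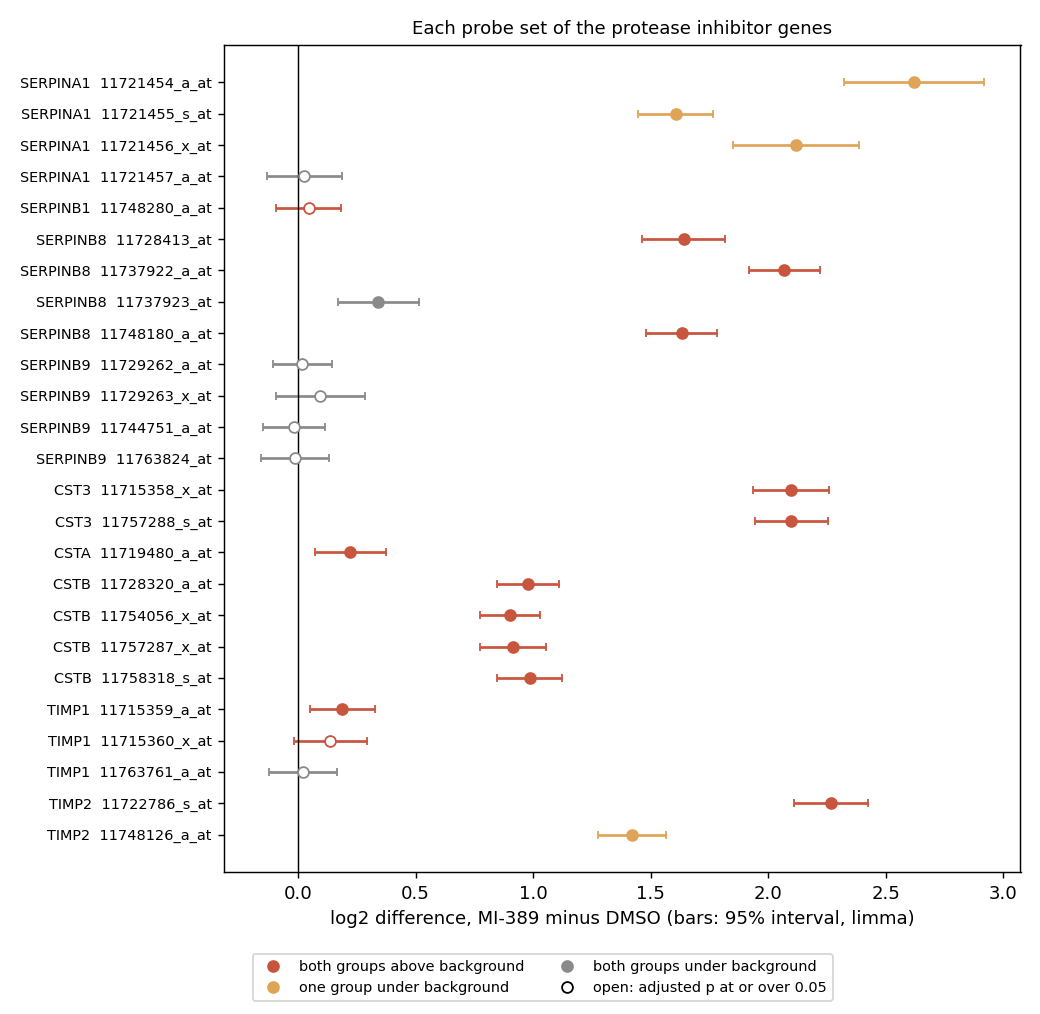
Log2 difference, MI-389 minus DMSO, of each of the 25 probe sets with its 95% interval from limma; colour shows how many groups lay under the background guide, and open circles mark an adjusted p at or over 0.05. The 4 CSTB and the 2 CST3 probe sets agree closely with each other, while SERPINA1, SERPINB8 and TIMP2 probe sets differ in size.

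Over probe sets, 17 of 25 rose and none fell, beside 28.0% of all tested probe sets that were called, 14.0% higher and 14.0% lower. After spike-in centring, 14 of the 25 were called higher and 6 lower, beside 5.89% and 61.2% of all probe sets. Of the 6 called lower, all but the SERPINB1 probe set lay under 5.49 in both groups. Called changes of at least 2-fold were found for 3.13% of all probe sets in the scaling as deposited. In that scaling the groups did not overlap for 17 of the 25, against 40.4% of all probe sets. Of the other 8, 6 lay under 5.49 in both groups, and the remaining ones were the SERPINB1 probe set and 11715360_x_at of TIMP1. Most of the 25, 22, carry suffixes (_a_at, _s_at or _x_at) that mark sequence shared between transcripts. By Pearson correlation over the 6 arrays, the genes with the pattern most like that of SERPINA1 were NFXL1, ACO1 and FUOM, with r of 0.9996, 0.9996 and 0.9993. The arrays share 2 groups, SERPINA1 lay under 5.49 on every DMSO array, and 272 of 18238 other genes had r over 0.99.

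Of 26 other serpins measured, 3 rose and 3 fell, with a median of -0.02, and 20 lay under 5.49 in both groups. With the mean of all probe sets of each gene, 8 were called, 5 of them lower. SERPINF1 (named after its values were seen), at 9.62 with MI-389 and 9.73 with DMSO, was not called (-0.11). However, 4 of its 5 probe sets were called lower, with differences over the 5 from -0.59 to -0.11. SERPINB10, a clade B serpin of bone marrow cells, had 6.17, 6.49 and 6.22 with MI-389, against 3.70, 4.01 and 3.85 with DMSO. It rose by 2.44 (SE 0.10, adjusted p = 4.79e-08 by limma), at least 1.75-fold when set against 5.49. SERPINF2 (0.31) and SERPINA6 (0.19) also passed the threshold, with both groups under 5.49. The SERPINA6 call was lost without MI-389 replicate 1 or 2 or DMSO replicate 1 or 2, with limma adjusted p from 0.0824 to 0.168. SERPINI1, neuroserpin, an inhibitor of tissue plasminogen activator, fell by 1.63 to 5.55 ± 0.07 with MI-389, against 7.18 ± 0.13 with DMSO (SD, n = 3 each). SERPINE2, protease nexin-1, changed by -0.88, with 4 of 6 probe sets called lower, and SERPINI2 by -0.43, both with the MI-389 level under 5.49, which leaves each at least 1.06-fold lower.

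SERPINB8 and SERPINB10 are neighbours among the clade B serpins of chromosome 18 in the RefSeq order of GRCh38.p14. Of the 10 clade B genes there, 9 were measured. SERPINB10 and SERPINB8, the last 2 in that order, were the ones called. The other 7 measured, SERPINB5, SERPINB12, SERPINB13, SERPINB4, SERPINB3, SERPINB11 and SERPINB7, lay under 5.49 in both groups with differences from -0.12 to 0.02. The clade B genes of chromosome 6 are SERPINB1, SERPINB9 and SERPINB6, and of these SERPINB1 and SERPINB9, given above, were measured and not called. SERPINB6 was not analysed here.

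Among 12 other cystatins, none rose and 2 fell, with a median of 0.0042, and 11 were under 5.49 in both groups. CST7, cystatin F, which enters lysosomes and controls cathepsins there, fell by 1.23 to 4.42 ± 0.15 with MI-389, against 5.66 ± 0.10 with DMSO (SD, n = 3 each, adjusted p = 1.72e-06 by limma), at least 1.12-fold lower when set against 5.49. CST2, given above, was the other call, and it was lost without MI-389 replicate 1 (-0.25) or without DMSO replicate 2 (-0.21), which left 1. Of TIMP3, TIMP4 and RECK, RECK rose. RECK, a membrane-anchored inhibitor of metalloproteases, had 6.55, 6.73 and 7.26 with MI-389, against 5.60, 5.45 and 5.41 with DMSO (log2 change 1.36, SE 0.150, adjusted p = 5.61e-05 by limma), with 1 of its 3 probe sets called. Of 9 other serine protease inhibitors, 2 rose and 1 fell. SLPI, which blocks elastase and cathepsin G, had 7.76, 7.69 and 7.39 with MI-389, against 4.87, 5.39 and 5.59 with DMSO, a log2 change of 2.33 and at least 4.37-fold when set against 5.49. SPINT2, a Kunitz-type inhibitor of membrane serine proteases, fell by 1.18, and A2M just passed (0.38, limma adjusted p = 0.0499), under 5.49 on average in either group. A2M was not called without MI-389 replicate 3 (0.21), DMSO replicate 2 (0.32) or DMSO replicate 3 (0.38). With the spike-in centring, the other serpins counted 1 higher and 22 lower, the other cystatins 0 and 10, and the other serine protease inhibitors 1 and 6, with SERPINF2 at 0.058, SERPINA6 at -0.058 and A2M at 0.13, none of them called.

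Among the proteases that such inhibitors act on, calls went in both directions. Of 9 granule and granzyme serine proteases, 2 rose and 1 fell, with a median of -0.0031, and with the spike-in centring 2 were higher and 6 lower. PRTN3, proteinase 3, had 11.03, 10.80 and 10.86 with MI-389, against 8.66, 8.52 and 8.57 with DMSO (log2 change 2.31). ELANE, neutrophil elastase, the main target of alpha-1-antitrypsin, rose by 1.96. PRSS57, a granule protease of neutrophils, changed by -0.96. CTSG (cathepsin G) and GZMB (granzyme B, the target of SERPINB9) were named for their link to members after their values were seen. CTSG had 11.15 ± 0.0017 with MI-389 and 11.15 ± 0.03 with DMSO (SD, n = 3 each) and was not called (limma adjusted p = 0.974). GZMB was under 5.49 in both groups. Of PLAU, PLAUR and PLAT, PLAUR, the urokinase receptor, fell by 0.54, with 4 of 5 probe sets lower. Without MI-389 replicate 3, PLAT, tissue plasminogen activator, was called as well (0.30, limma adjusted p = 0.00684), which made 2 calls.

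On the cysteine protease side, 7 of 12 cathepsins and legumain rose and 1 fell, with a median of 0.23. The largest rises were those of CTSH (1.07), an aminopeptidase, CTSZ (1.05), a carboxypeptidase, and CTSO (0.69). CTSW, the one called lower (-0.22), was under 5.49 in both groups and not called without MI-389 replicate 1 (-0.20), DMSO replicate 2 (-0.19) or DMSO replicate 3 (-0.20). For CTSH and CTSO, 1 of 2 probe sets was called. CTSC also rose (0.58, named after its value was seen). Of its 3 probe sets, 1 was called higher and 1 lower, with differences from -0.34 to 0.58. CTSV, also called higher (0.17, named after its value was seen), was under 5.49 in both groups. Its call was lost without any single MI-389 array, DMSO replicate 1 or DMSO replicate 3, with limma adjusted p from 0.0509 to 0.102. CASP1, the protease that matures interleukin 1 beta, rose by 0.92, with 7 of 9 probe sets called higher, and CASP4 by 0.24, with 1 of 7. With the spike-in centring 5 of the 12 genes in the cathepsin and legumain list were higher and 2, CTSW and LGMN (legumain, named after its value was seen), were lower, and CASP4 was at -0.0097 and not called.

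Among 23 matrix metalloproteases and ADAMs, 5 rose and 2 fell, with a median of 0.03, and 14 were under 5.49 in both groups. One of those that rose, MMP9 (0.44, named after its value was seen), was under 5.49 in both groups. Its call was lost without any single DMSO array, with limma adjusted p from 0.0563 to 0.0961. MMP2, the gelatinase whose proenzyme TIMP2 binds, had 7.46, 7.13 and 7.44 with MI-389, against 5.58, 5.40 and 5.59 with DMSO. It rose by 1.82 (SE 0.09, adjusted p = 2.49e-07 by limma), and 3 of its 4 probe sets were called higher. MMP14 fell to 8.88, 8.81 and 8.79 with MI-389, against 9.30, 9.40 and 9.22 with DMSO, a log2 change of -0.48 with 2 of 4 probe sets called. MMP25, a membrane-anchored metalloprotease of leukocytes, rose to 5.58 with MI-389, against 4.19 with DMSO, which is at least 1.07-fold when set against 5.49, and 1 of its 2 probe sets was called. ADAM15 rose by 0.61, with 2 of 6 probe sets called. ADAM10, a sheddase, fell by 0.53, and all 4 of its probe sets were lower. With the spike-in centring this list counted 3 higher and 13 lower.

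**Figure D3:**
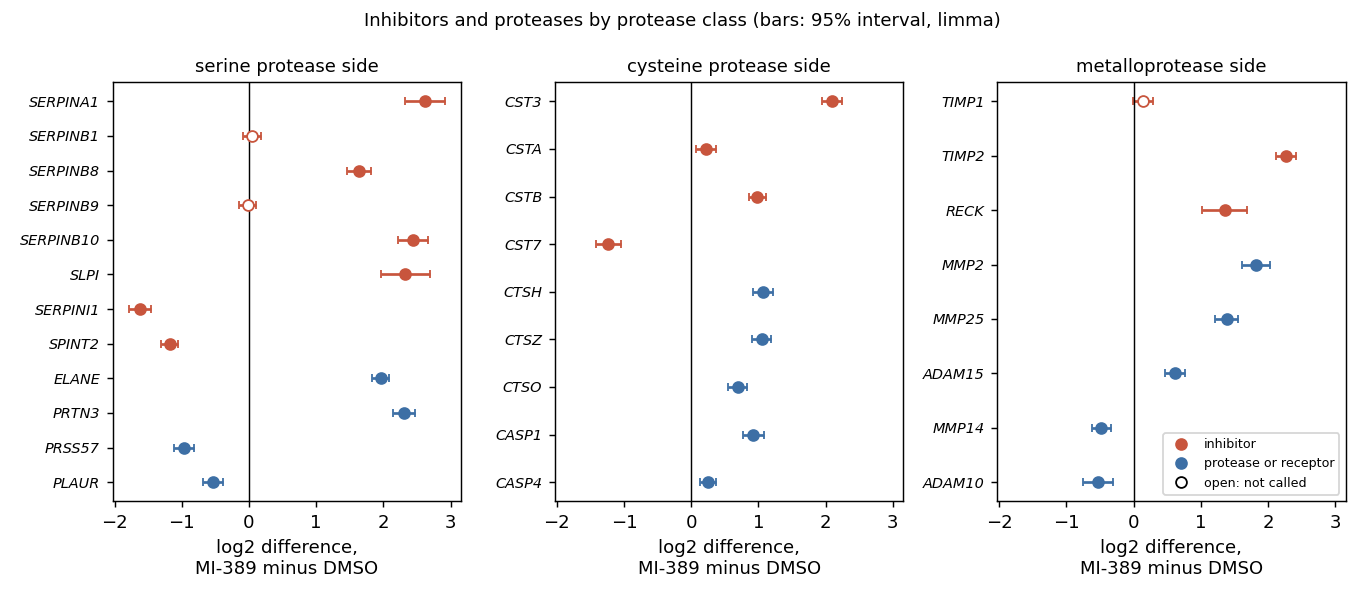
Log2 difference, MI-389 minus DMSO, with its 95% interval from limma for the inhibitors (red) and for proteases and the urokinase receptor (blue), by class of protease; open circles were not called. SERPINA1 at 2.62 stands beside ELANE at 1.96, and TIMP2 at 2.27 beside MMP2 at 1.82 and MMP14 at -0.48.

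**Figure D4:**
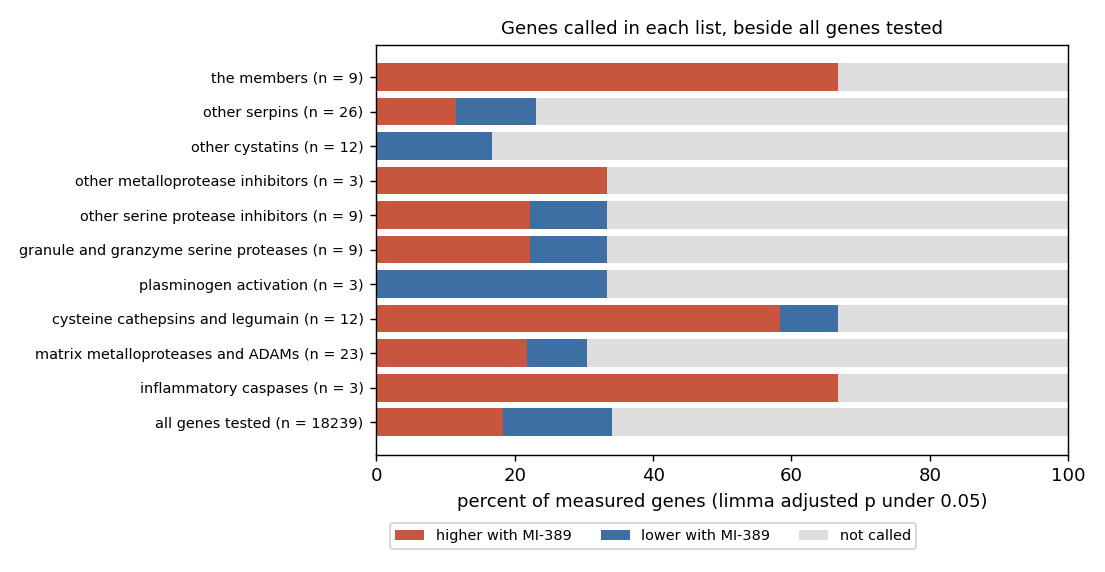
Percent of the measured genes of each list called higher, called lower or not called with MI-389 (limma adjusted p under 0.05), beside all 18239 genes tested. The 9 members have 6 genes higher and none lower, while the 26 other serpins have 3 higher and 3 lower.

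Markers of other cell types were read on the same arrays. Of 9 measured monocyte markers, 7 rose and none fell, a share of 77.8% called beside 34.1% of all genes, and their summed level on the linear scale was 9668 to 10118 with MI-389 and 2512 to 2547 with DMSO. Most of that sum is LYZ, with a log2 mean of 13.13 with MI-389 and 11.07 with DMSO, so it mainly restates that gene. LYZ, CSF1R and CD68 rose by 2.06, 1.65 and 0.75, and ITGAM, under 5.49 with DMSO, by at least 4.68-fold. The other calls, CD14 (0.72), FCN1 (0.32) and CD163 (0.23), lay under 5.49 in both groups. VCAN and FCGR3A, not called, also lay under 5.49 in both groups. Of 9 neutrophil markers CXCR2 (1.75) and CSF3R (1.55) rose, with a summed level of 499 to 530 with MI-389 and 227 to 239 with DMSO, and the other 7 were under 5.49, a share of 22.2% called. Of 8 T and NK cell markers 2 were called higher, NKG7 (0.94) and CD3D (0.32, under 5.49), with sums of 299 to 312 and 222 to 228 in the same order. The B cell list (4 measured), the erythroid list (2), the stromal and epithelial list (7) and the hepatocyte list (6) counted none higher. The number lower was 1, 0, 2 and 0 in that order. These were CD79A (-0.27) and COL1A1 (-0.31), each under 5.49 in both groups, and KRT18, which had 4.79 ± 0.05 with MI-389 and 6.05 ± 0.14 with DMSO (SD, n = 3 each), a bound of at least 1.48-fold lower. Under the spike-in centring, which lowers all genes, the same 4 lists counted 3, 1, 7 and 4 lower and none higher. The monocyte markers then counted 5 higher and 2 lower, the neutrophil markers 2 and 3, and the T and NK cell markers 1 and 3. Hepatocytes, a main source of alpha-1-antitrypsin, had 5 of 6 markers under 5.49, and the list's summed level was 131 to 136 with MI-389 and 125 to 131 with DMSO. The part of monocyte and neutrophil markers in the changes of the inhibitors was not tested.

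**Figure D5:**
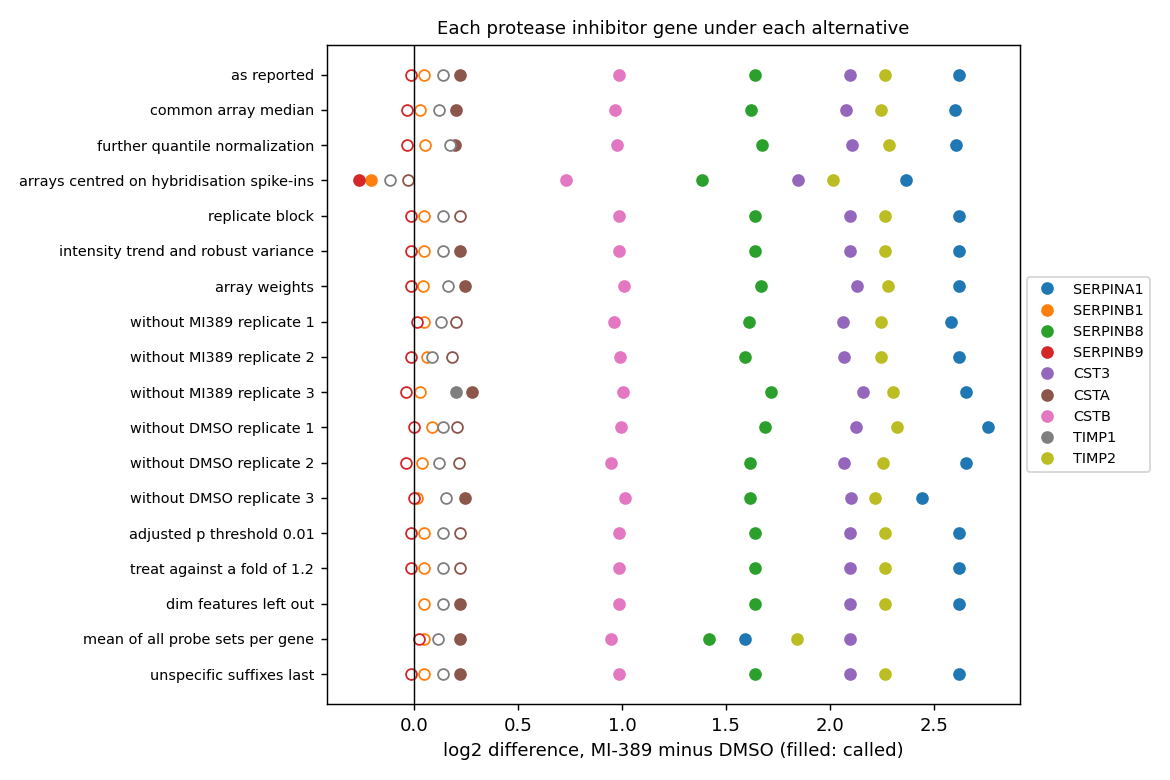
Log2 difference, MI-389 minus DMSO, of each of the 9 genes under the reported setting (top) and each alternative; filled dots were called. SERPINA1, TIMP2, CST3, SERPINB8 and CSTB stay above 0 and called in every setting shown, CSTA loses its call in several, and SERPINB1, SERPINB9, CSTA and TIMP1 lie below 0 with the spike-in centring.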

How the data were processed

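Total RNA of 3 MI-389 and 3 DMSO cultures was labelled by the Affymetrix 3-prime protocol. The deposited table holds log2 values of each array. The submitters' processing notes name RMA and limma without versions or settings. RMA compresses dim values, so folds of dim genes are understated, and 3 arrays a group limit the precision. Of 49386 probe sets, 93 controls were not tested. Gene names came from the platform annotation, updated through Entrez IDs in RefSeq (GRCh38.p14). The probe set of highest mean stood for a gene, where it was annotated to no other.

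Both groups were compared with limma 3.58.1 under R 4.3.3 (lmFit, eBayes, two-sided, no covariates) over all probe sets or all genes, with Benjamini-Hochberg adjustment and a threshold of 0.05. The procedure was tested on simulated data. The members and the gene lists were chosen with earlier results of these data known. Named were all members, up to 3 rising and 3 falling called genes of largest change in each other list, and the 3 genes most like the member of largest fitted change. Alternatives covered normalisation, variance models, thresholds, the treat test (fold 1.2), dim genes (under the 40th percentile), single arrays and the choice of probe set.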

Additional observations from a re-analysis of the deposited data

How the results depend on the processing

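SERPINA1, SERPINB8, CST3, CSTB and TIMP2 kept their direction and their call under all 17 alternatives, with log2 differences of 1.59 to 2.76, 1.39 to 1.72, 1.85 to 2.16, 0.73 to 1.01 and 1.84 to 2.32. The number of members called was 5 to 7 when single arrays were left out, and 15 to 18 for their probe sets. CSTA and 11715359_a_at of TIMP1 were not called at a threshold of 0.01 or against a fold of 1.2.

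With the arrays centred on the hybridisation spike-ins, which were 0.25 higher on the MI-389 arrays, 12453 genes and 33091 probe sets were called, in place of 6214 and 13800. SERPINB1 stood at -0.21, CSTA at -0.031 and TIMP1 at -0.11, and SERPINB9, under 5.49 in both groups, was called at -0.27. The probe sets 11721457_a_at of SERPINA1 (-0.23), 11748280_a_at of SERPINB1 (-0.21), 11729262_a_at (-0.23) and 11729263_x_at (-0.16) of SERPINB9, 11719480_a_at of CSTA (-0.031), and 11715359_a_at (-0.064), 11715360_x_at (-0.11) and 11763761_a_at (-0.23) of TIMP1 turned sign. The lists then had 23 other serpins, 10 other cystatins, 2 other metalloprotease inhibitors, 7 other serine protease inhibitors, 8 granule and granzyme proteases and 16 metalloproteases called. That centring lowers every difference alike by 0.25.

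Against a fold of 1.2, 2457 genes and 5346 probe sets passed, with 3 other serpins, 1 other cystatin, 5 cathepsins, 4 metalloproteases and 1 caspase. At a threshold of 0.01, 1 other cystatin was called. The plasminogen activation list had 2 calls after a further quantile normalisation, with an intensity trend, with dim genes left out and with the mean of all probe sets, and 0 with unspecific suffixes last. With the mean of all probe sets 8 other serpins, 5 of them lower, 2 other metalloprotease inhibitors and 1 caspase were called. With unspecific suffixes last, 1 caspase was called. When single arrays were left out, the other cystatins had 1 to 2 calls and the plasminogen activation list 1 to 2. Beyond the centring, the cause of these shifts was not tested.

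Sign changes near 0 were those of SERPINB9 with the mean of all probe sets (0.021) and without single arrays (-0.041 to 0.012), and of 11729262_a_at of SERPINB9 with a common median (-0.00037). Without single arrays the probe sets 11744751_a_at (-0.041 to 0.012) and 11763824_at (-0.050 to 0.043) of SERPINB9, 11763761_a_at of TIMP1 (-0.013 to 0.073) and 11721457_a_at of SERPINA1 (-0.036 to 0.067) also turned. All lay under background.

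The replicate numbers did not pair the arrays: deviations of equal-numbered arrays correlated at -0.18, 0.03 and -0.11, and 1 of 6 arrays correlated best with its own number. With the replicate block 5725 genes and 12781 probe sets were called. The block left 5 members and 15 of their probe sets called, with CSTA at 0.22 (adjusted p = 0.0514).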
